A study of Mus musculus with 6 samples.

Results

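The transcripts of 54 genes that drive entry into mitosis, build the spindle and the kinetochore and separate the chromosomes were read in TuBo cells with and without p140Cap. They are the rows of the deposited counts whose gene symbol is in a list of mitotic genes, and they make up 54 of the 21960 genes counted. TuBo cells were derived from a tumor that arose in a BALB/c-MMTV-NeuT mouse, in which a mammary tumor virus promoter drives activated rat Neu (HER2), so both groups carry this oncogene. RNA was sequenced from 3 mock and 3 p140Cap libraries. The labels give the genotype of mock cells as wt and that of p140Cap cells as overexpressing p140Cap. p140Cap cells received a pBabe-puro retrovirus with p140Cap cDNA, were selected with puromycin, grown from single cells and pooled from p140Cap-positive clones, so the choice of clones and the presence of p140Cap cannot be told apart. The labels do not say whether libraries of a group came from separate cultures, and p-values measure only the spread between these libraries.

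Cells enter mitosis when CDK1, bound to cyclin A or cyclin B, is freed from the inhibitory phosphates that WEE1 adds and CDC25 phosphatases remove. Polo-like and Aurora kinases then drive spindle assembly, kinetochores tie the chromosomes to microtubules, and the spindle checkpoint holds back the anaphase-promoting complex (APC/C) until every chromosome is attached. CDC20-bound APC/C finally marks securin and cyclin B for destruction, which frees separase to split the sister chromatids. Most of these genes are transcribed late in the cell cycle, through CCAAT boxes bound by NF-Y and a cell cycle homology region (CHR) bound by MuvB complexes with B-MYB (Mybl2) and FOXM1, and are silent in resting cells. Their transcripts are therefore widely used to read how much of a tumor is dividing.

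The stretches of DNA just before the start of 9 of the genes are given first, since many of the genes share the elements in them. Sequences are from RefSeq on GRCm38.p6 and hold the 120 bases before the start that the promoter table uses, read 5′ to 3′ on the strand of the gene. That start lies inside the gene's outermost RefSeq span for Mybl2, by 308 bases, and for Top2a, by 10 bases, and at its edge for the other 7. Capitals mark a CCAAT box (CCAAT, or ATTGG on the other strand), a CHR (TTTGAA, or TTCAAA on the other strand) or an E2F site (letters given below the sequences). Cdk1, Ccnb1 and Ccnb2 encode the kinase of mitotic entry and its cyclins, Cdc20 and Ube2c serve the APC/C, Top2a untangles DNA, and Kif11, Mad2l1 and Mybl2 are among the members with the lowest log2 fold changes. The windows are those of Cdk1 at chr10:69352913-69353032 (minus strand), Ccnb1 at chr13:100786487-100786606 (minus strand), Ccnb2 at chr9:70421555-70421674 (minus strand), Cdc20 at chr4:118437344-118437463 (minus strand), Ube2c at chr2:164769809-164769928 (plus strand), Top2a at chr11:99024190-99024309 (minus strand), Kif11 at chr19:37376262-37376381 (plus strand), Mad2l1 at chr6:66535101-66535220 (plus strand) and Mybl2 at chr2:163054515-163054634 (plus strand).
Cdk1: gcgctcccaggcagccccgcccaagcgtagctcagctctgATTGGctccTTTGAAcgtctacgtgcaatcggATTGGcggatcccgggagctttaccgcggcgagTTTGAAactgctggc
Ccnb1: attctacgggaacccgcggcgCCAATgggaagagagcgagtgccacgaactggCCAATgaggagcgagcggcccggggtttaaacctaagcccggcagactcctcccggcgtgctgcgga
Ccnb2: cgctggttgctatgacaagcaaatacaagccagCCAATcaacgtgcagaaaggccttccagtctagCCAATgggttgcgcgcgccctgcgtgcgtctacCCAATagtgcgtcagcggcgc
Cdc20: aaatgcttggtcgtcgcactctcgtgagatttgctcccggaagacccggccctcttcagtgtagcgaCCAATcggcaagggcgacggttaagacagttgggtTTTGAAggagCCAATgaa
Ube2c: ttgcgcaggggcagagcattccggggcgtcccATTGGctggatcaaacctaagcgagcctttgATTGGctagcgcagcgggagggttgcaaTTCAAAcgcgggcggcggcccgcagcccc
Top2a: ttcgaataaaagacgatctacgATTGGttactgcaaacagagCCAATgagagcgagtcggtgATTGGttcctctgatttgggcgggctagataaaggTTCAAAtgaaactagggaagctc
Kif11: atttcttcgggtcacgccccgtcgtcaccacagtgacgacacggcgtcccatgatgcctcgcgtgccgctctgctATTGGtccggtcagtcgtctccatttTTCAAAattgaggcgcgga
Mad2l1: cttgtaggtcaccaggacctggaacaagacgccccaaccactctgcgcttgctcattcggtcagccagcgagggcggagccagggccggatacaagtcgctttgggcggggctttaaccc
Mybl2: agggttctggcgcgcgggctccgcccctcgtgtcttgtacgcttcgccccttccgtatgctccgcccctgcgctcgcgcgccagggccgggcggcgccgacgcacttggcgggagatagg
Cdk1, Top2a, Cdc20, Ube2c and Kif11 each show at least 1 CCAAT box and at least 1 CHR in this window. Ccnb1 and Ccnb2 show CCAAT boxes alone in it, and neither Mad2l1 nor Mybl2 shows these letters. Ccnb2 has 2 CHR matches just outside the printed bases, at -167 and 5 relative to the start, within the longer window used below. Ccnb1 has no CHR in that longer window.

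Over the longer window of 250 bases before to 50 after the start, 44 of the 54 genes had an entry in the RefSeq table, with 49 promoters between them, 12 of them with a start more than 100 bases inside the gene's span. A CCAAT box was in 75.5% of these promoters (37 of 49), against 37.9% of 11678 promoters of the genes tested and 37.4% of all 32851 promoters in the table, and in 84.6% of 13 promoters of replication licensing genes (11 of 13), which are transcribed earlier in the cell cycle. A CHR was in 69.4% (34 of 49), against 12% of promoters of the genes tested and 17.9% of all promoters. Both motifs together were in 57.1% (28 of 49), against 4.99% and 6.95%. An E2F site was searched only as the exact letters TTTGGCGC or TTTCGCGC on either strand, and other forms of the site were not counted. These letters were in 8.16% of the promoters (4 of 49) and in 46.2% of the licensing promoters (6 of 13). They were in 1.6% of promoters of the genes tested and in 0.813% of all promoters. CHR was in 23.1% of the licensing promoters (3 of 13). By their letters, matches of different motifs can share at most 1 base. Letters in a window are a description and not a bound site.

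**Figure D1:**
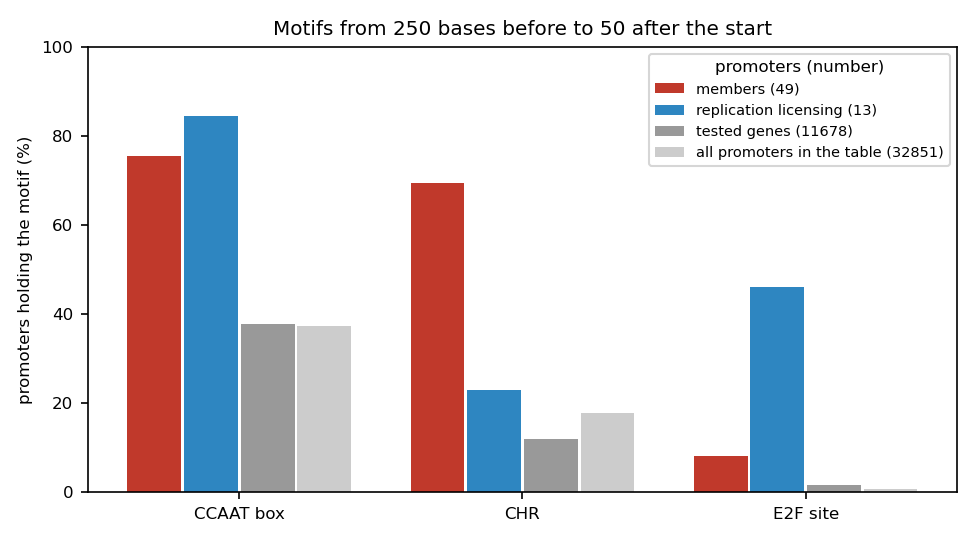
Share of promoters (y axis, percent) holding a CCAAT box, a CHR or an E2F site within 250 bases before to 50 after the annotated start, for the mitotic genes, the replication licensing genes, the genes tested and all promoters in the RefSeq table, with the number of promoters in brackets. The CHR is in 69.4% of promoters of the mitotic genes and 23.1% of those of licensing genes, while the CCAAT box (84.6% against 75.5%) and the E2F site (46.2% against 8.16%) are more frequent among licensing genes.

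Library totals lay between 13770385 and 75506562 reads on genes, and the mock libraries were all the deeper ones (ratio of median totals 2.62). Srcin1, which encodes p140Cap, was read 1192, 509 and 552 times in mock and 34371, 36989 and 30546 times in p140Cap cells, which matches the labels. Markers of mammary epithelium summed to between 5461 and 5803 CPM (reads scaled to a common library size) in mock and between 6342 and 6517 CPM in p140Cap cells over 7 genes, of which Krt19 was too low to test. Fibroblast markers summed to 9.93 to 10.5 CPM in mock and 11.3 to 14.1 CPM in p140Cap cells over 7 genes, immune markers to 2.06 to 2.34 and 3.23 to 4.09 CPM over 6, and endothelial markers to 0.210 to 0.478 and 0.477 to 0.734 CPM over 4, and of their defining genes Ptprc, Cd3e, Lyz2, Col1a2, Col3a1, Dcn, Lum, Thy1 and Kdr had 0 reads in every library. Of the markers that could be tested, Epcam, Krt18, Cdh1, Cd68, Col1a1 and Pecam1 were higher (log2 fold changes 0.42, 0.24, 0.11, 0.83, 0.80 and 1.25) and Cldn7 was lower (-0.41), while Krt8, Erbb2 and Pdgfra did not pass. The part of these marker differences in the results was not tested. All 54 mitotic genes had enough reads for a test, and none had fewer than 142 reads in a library.

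The mitotic transcripts were lower in p140Cap cells. Of the 54 genes, 49 passed as lower and 0 as higher (edgeR quasi-likelihood, Benjamini-Hochberg adjusted p below 0.05 over 11800 genes). Of all genes tested, 71.1% passed, 35.9% as lower and 35.2% as higher. DESeq2 and limma-voom also gave 49 lower and 0 higher, and at an unadjusted p below 0.05 edgeR gave 51 lower and 0 higher. The 5 genes that did not pass were Ccnb2, Cdc25b, Cdc25c, Cenpa and Cenpf. With the further demand of a decrease of at least 0.5 log2 units, 18 of the 54 were called, against 15.5% of all genes tested. The median log2 fold change of the 54 genes was -0.38, which is 76.8% of the mock level, with the middle part of the genes between -0.54 and -0.24 (lower and upper quartile), while the median of all genes tested was 0.00. All 54 fitted values were negative (50.2% of all genes tested were), from -0.93 for Mybl2 to -0.01 for Cenpa. The 3 p140Cap libraries were below the 3 mock libraries for 51 of the 54 genes, against 37.2% of all genes tested, and the groups overlapped for Ccnb2, Cenpa and Cenpf. With every library thinned to the smallest total, which removes the difference in depth, 48 were lower, 17 of them by at least 0.5 log2 units, and 0 higher. In bulk RNA, fewer cells in mitosis and less of these transcripts per cell cannot be told apart.

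**Figure D2:**
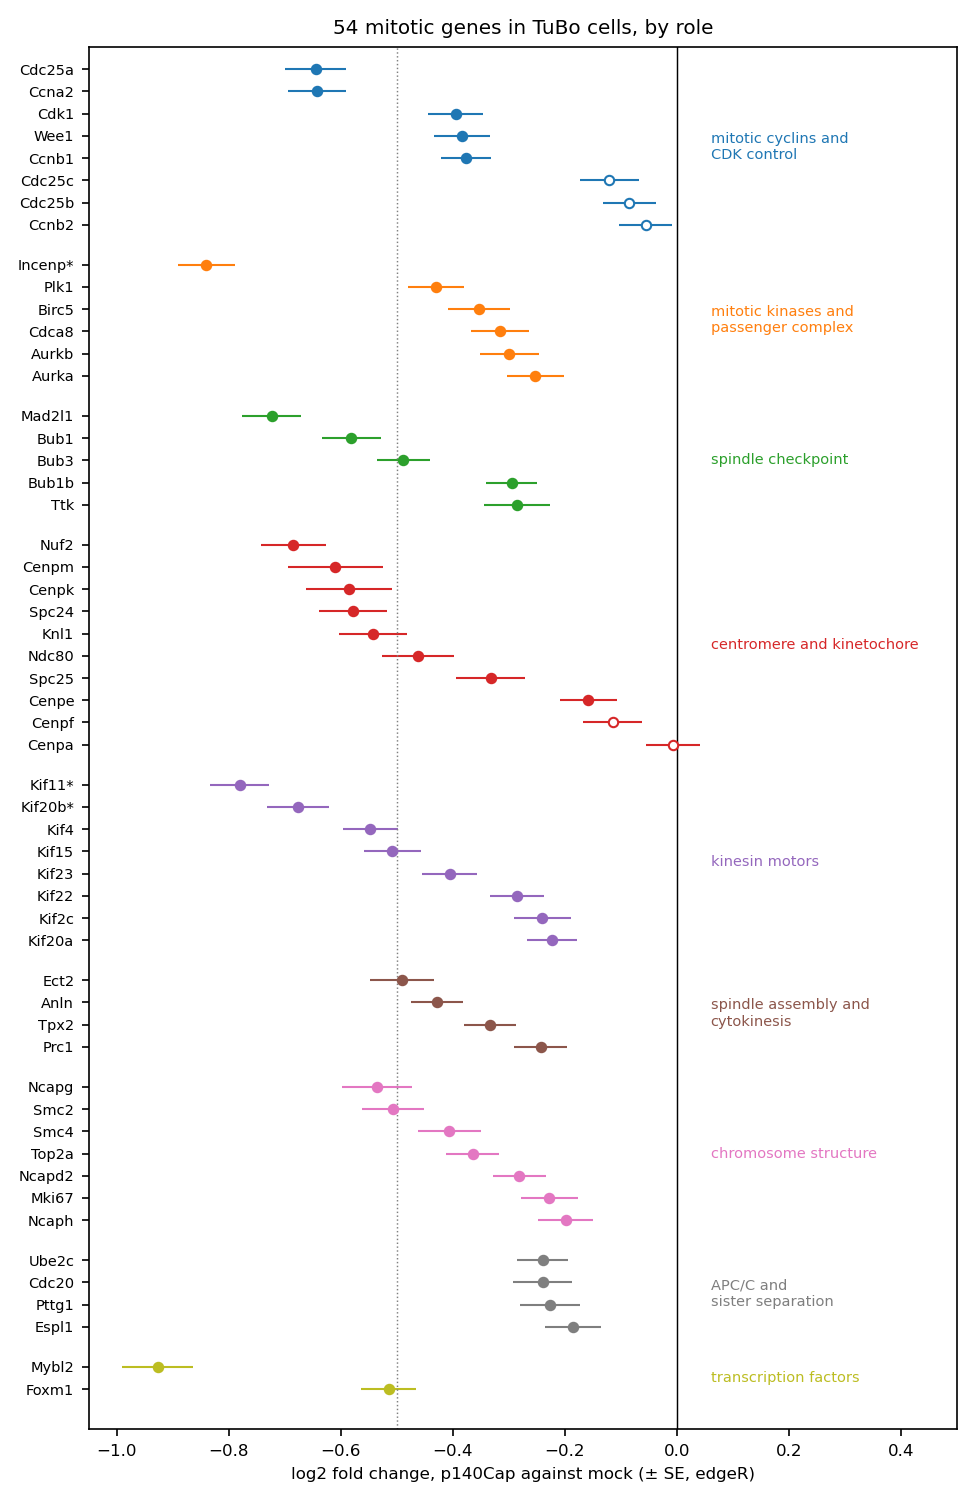
Log2 fold change between p140Cap and mock cells (x axis, edgeR, bars are SE) for each of the 54 genes, grouped by role, with filled points for genes that passed, open points for the others and a dotted line at -0.5. All points lie at or left of 0, from -0.93 for Mybl2 to -0.01 for Cenpa, and asterisks mark the 3 genes on chromosome 19.

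The median fold change varied with the role of the genes. The median log2 fold change was -0.33 for the 6 mitotic kinases and passenger complex genes, -0.34 over all 8 kinases regardless of group, -0.38 for the 8 genes of cyclin and CDK control, -0.49 for the 5 spindle checkpoint genes, -0.50 for the 10 centromere and kinetochore genes, -0.46 for the 8 kinesin motors, -0.38 for the 4 genes of spindle assembly and cytokinesis, -0.36 for the 7 chromosome structure genes, -0.23 for the 4 genes of APC/C and sister separation and -0.72 for the 2 transcription factors. Taken per library, relative to the mock mean, the median over APC/C genes was -0.20, -0.26 and -0.23 in the p140Cap libraries, that over kinetochore genes was -0.44, -0.58 and -0.43, and that over kinesins was -0.39, -0.52 and -0.47. The APC/C medians were nearer to 0 than those of the kinetochore genes and the kinesins in every p140Cap library, while the medians of kinesins and kinetochore genes overlapped. These are descriptions of lists of unequal size and the differences between lists were not tested. Replicate 2 of the p140Cap libraries was the lowest of the 3 for 32 of the 54 genes. Without it, the count of genes lower by at least 0.5 log2 units was 13, the median was -0.36 and the number called lower was still 49.

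**Figure D3:**
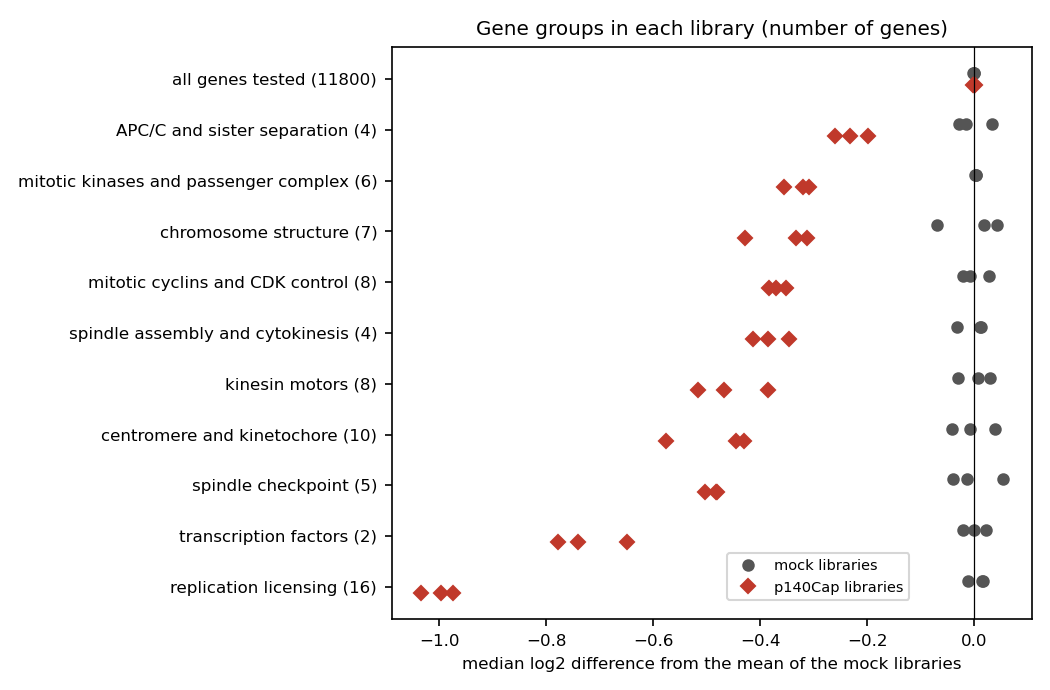
Median over the genes of each group of the log2 difference from the mock mean (x axis), in each of the 3 mock libraries (circles) and 3 p140Cap libraries (diamonds), with the number of genes in brackets. APC/C genes lie nearest to 0 among the mitotic groups in the p140Cap libraries, the transcription factors lie farthest, and replication licensing genes lie beyond all of them.

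Among the genes of cyclin and CDK control, 5 of 8 fell, where 35.9% of all genes tested did. Cdk1, the kinase itself, was at 258, 271 and 262 CPM in the mock libraries and 204, 189 and 208 CPM in the p140Cap libraries (log2 fold change -0.40, SE 0.05, edgeR adjusted p = 2.15e-06). Every p140Cap library was thus below every mock library. Ccna2, whose cyclin A2 acts in S phase and early mitosis, was at 286, 300.3 and 284 CPM in the mock libraries and 192, 174 and 192 CPM in the p140Cap libraries (log2 fold change -0.64, SE 0.05, edgeR adjusted p = 1.04e-08). Its level in p140Cap cells was 64.1% of that in mock cells, next to 76% for Cdk1. Ccnb1, which encodes the main mitotic cyclin, was at 197, 201 and 202 CPM in the mock libraries and 154, 152 and 156 CPM in the p140Cap libraries (log2 fold change -0.38, SE 0.04, edgeR adjusted p = 1.09e-06). Ccnb2, the related cyclin found on the Golgi, was at 123, 132 and 131 CPM in the mock libraries and 125, 125 and 121 CPM in the p140Cap libraries (log2 fold change -0.06, SE 0.05, edgeR adjusted p = 0.303). Its libraries overlapped, and the interval of 2 SE around its log2 fold change was -0.15 to 0.04, which leaves out the value of Ccnb1. The log2 ratio of Ccnb1 to Ccnb2 reads went from 0.63 ± 0.04 to 0.31 ± 0.04 (mean ± SD, n = 3 libraries each), with no overlap of the groups.

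Of the CDC25 phosphatases and WEE1, which act on CDK1 in opposite directions, Cdc25a and Wee1 fell. Cdc25a, which also acts at the start of S phase, had the lowest value of the group, with 54, 53.5 and 51.7 CPM in the mock libraries and 35.1, 33.0 and 33.9 CPM in the p140Cap libraries (log2 fold change -0.64, SE 0.05, edgeR adjusted p = 1.97e-08). Wee1, the inhibitory kinase, was at 71.0, 75.1 and 73.5 CPM in the mock libraries and 56.2, 56.5 and 55.6 CPM in the p140Cap libraries (log2 fold change -0.38, SE 0.05, edgeR adjusted p = 3.22e-06). Both had groups that stood well apart. Cdc25b was at 66.2, 67.3 and 66.5 CPM in the mock libraries and 63.2, 62.9 and 62.4 CPM in the p140Cap libraries (log2 fold change -0.08, SE 0.05, edgeR adjusted p = 0.123), and Cdc25c at 51.2, 52.4 and 51.2 CPM in the mock libraries and 47.5, 45.2 and 49.7 CPM in the p140Cap libraries (log2 fold change -0.12, SE 0.05, edgeR adjusted p = 0.0517). Neither passed the test, although their libraries did not overlap, and Cdc25c passed under 4 and Cdc25b under 1 of 15 alternative settings. The log2 ratio of Cdc25b to Cdc25c went from 0.37 ± 0.01 to 0.41 ± 0.07 (mean ± SD, n = 3 libraries each), with overlapping groups.

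**Figure D4:**
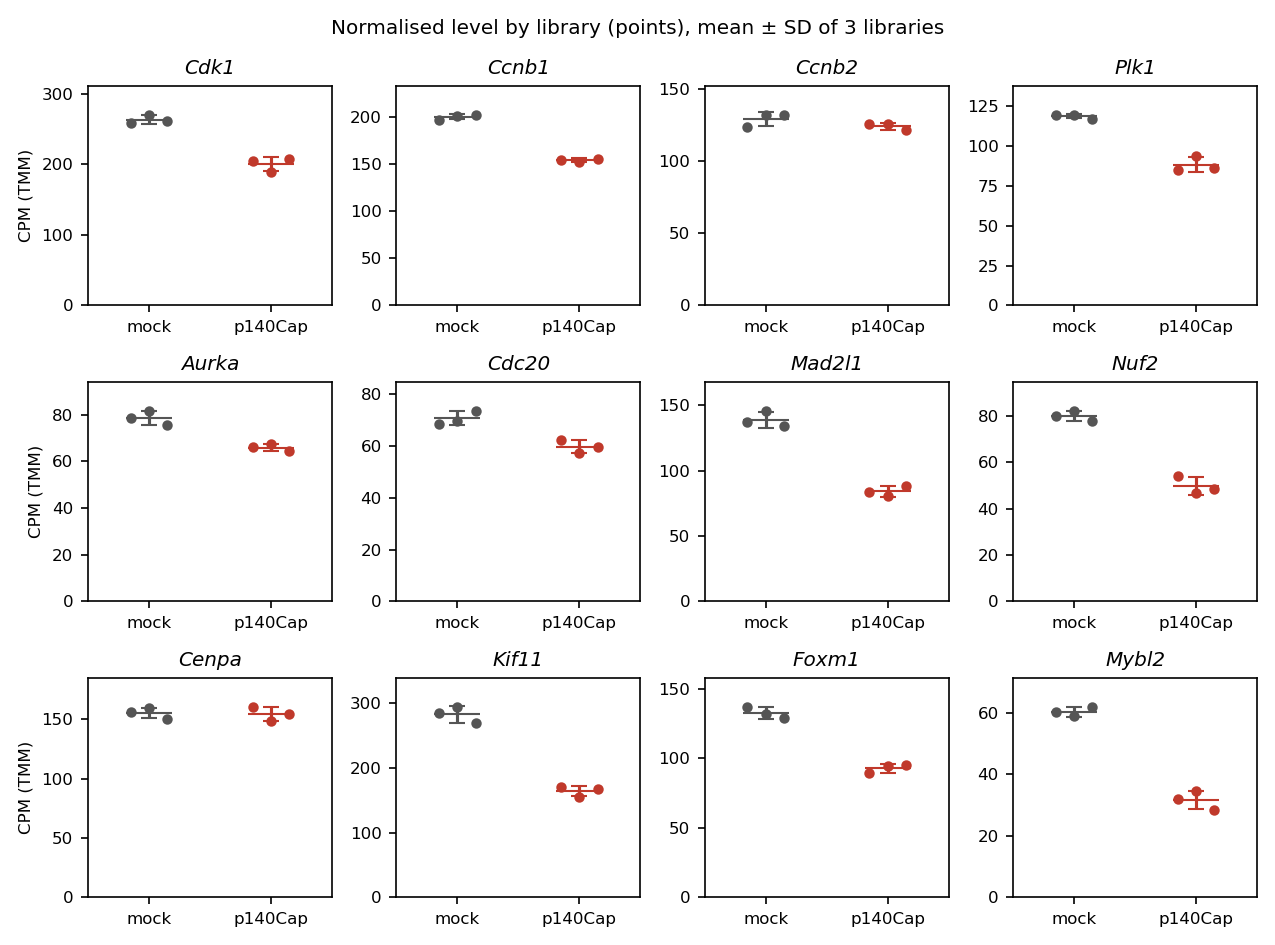
Normalized level (CPM, y axis from 0) of 12 of the genes in each mock and p140Cap library (points), with the mean and SD of 3 libraries. The p140Cap libraries are all below the mock libraries for 10 of these 12 chosen genes, against 37.2% of all genes tested. The groups overlap for Ccnb2 and Cenpa.

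All 6 genes of the mitotic kinases and the chromosomal passenger complex fell, against 35.9% of all genes tested. Plk1, the polo-like kinase that matures centrosomes and kinetochores, was at 119, 119.5 and 117 CPM in the mock libraries and 84.8, 93.4 and 85.9 CPM in the p140Cap libraries (log2 fold change -0.43, SE 0.05, edgeR adjusted p = 8.62e-07). Aurka, the Aurora kinase of the spindle poles, was at 78.3, 81.7 and 75.4 CPM in the mock libraries and 66.1, 67.3 and 64.2 CPM in the p140Cap libraries (log2 fold change -0.25, SE 0.05, edgeR adjusted p = 0.000309), the smallest change of the group. Aurkb, the catalytic part of the passenger complex, was at 88.7, 85.2 and 89.0 CPM in the mock libraries and 74.0, 72.7 and 66.8 CPM in the p140Cap libraries (log2 fold change -0.30, SE 0.05, edgeR adjusted p = 7.53e-05). Both Aurora genes passed, and the log2 ratio of Aurka to Aurkb, from -0.16 ± 0.09 to -0.11 ± 0.05 (mean ± SD, n = 3 libraries each), had overlapping groups. The other subunits of the passenger complex were Birc5 (survivin), with a log2 fold change of -0.35, Cdca8 (borealin), with -0.32, and Incenp, the scaffold, at 165, 153 and 169 CPM in the mock libraries and 88.7, 93.2 and 90.1 CPM in the p140Cap libraries (log2 fold change -0.84, SE 0.05, edgeR adjusted p = 3.87e-10). Incenp stood apart from its partners, whose log2 fold changes lay between -0.35 and -0.30. It lies on chromosome 19 (chr19:9872295-9899489 on GRCm38), where the 426 genes tested had a median log2 fold change of -0.35 and 79.6% were negative, against 0.01 and 49.1% for genes on other chromosomes. Kif11 and Kif20b lie on the same chromosome. The part of the chromosome in these 3 values was not tested. Without Incenp the group's median was -0.32.

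The spindle checkpoint genes fell in 5 of 5 cases, next to 35.9% of all genes tested, with a median that was lower than that of the kinases. Mad2l1, whose protein MAD2 binds and holds CDC20, was at 137, 146 and 134 CPM in the mock libraries and 83.7, 80.6 and 88.5 CPM in the p140Cap libraries (log2 fold change -0.72, SE 0.05, edgeR adjusted p = 3.24e-09). In p140Cap cells this was 60.6% of the mock level. Bub1, the kinase that docks on kinetochores, was at 120.5, 125 and 115 CPM in the mock libraries and 82.7, 76.4 and 81.8 CPM in the p140Cap libraries (log2 fold change -0.58, SE 0.05, edgeR adjusted p = 4.15e-08), and Bub3, its binding partner, averaged 167 ± 5.44 CPM in mock and 119 ± 1.02 CPM in p140Cap libraries (SD, n = 3, log2 fold change -0.49). Bub1b, which encodes the BUBR1 part of the checkpoint complex, fell less, with a log2 fold change of -0.29. Ttk, the MPS1 kinase that starts checkpoint signalling, had the smallest change, with 79.3, 83.1 and 77.9 CPM in the mock libraries and 69.9, 59.7 and 67.7 CPM in the p140Cap libraries (log2 fold change -0.29, SE 0.06, edgeR adjusted p = 0.000375). The log2 ratio of Bub1 to Bub1b went from -0.60 ± 0.06 to -0.89 ± 0.10 (mean ± SD, n = 3 libraries each), with no overlap of the groups.

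Among the centromere and kinetochore genes, 8 of 10 fell (35.9% of all genes tested did), with log2 fold changes from -0.69 to -0.16. Nuf2, a subunit of the NDC80 complex that grips microtubules, was at 80.0, 82.2 and 77.9 CPM in the mock libraries and 54.2, 46.6 and 48.5 CPM in the p140Cap libraries (log2 fold change -0.69, SE 0.06, edgeR adjusted p = 2.14e-08). Its partner Ndc80 had a log2 fold change of -0.46, and the inner subunits Spc24 and Spc25 had -0.58 and -0.33. All 4 subunits of this complex thus fell. The log2 ratio of Ndc80 to Nuf2 went from -0.47 ± 0.03 to -0.24 ± 0.11, and that of Spc24 to Spc25 from -0.19 ± 0.13 to -0.43 ± 0.06 (mean ± SD, n = 3 libraries each), both without overlap of the groups. Knl1, the scaffold that receives BUB1, averaged 121 ± 9.29 CPM in mock and 83.1 ± 4.78 CPM in p140Cap libraries (SD, n = 3, log2 fold change -0.54). Cenpk and Cenpm, of the inner network on the centromere, had log2 fold changes of -0.59 and -0.61 and were the members with the fewest reads.

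The histone and the large fibrous proteins of the kinetochore stood at the other end. Cenpa, the histone H3 variant that marks the centromere, was at 156, 159 and 151 CPM in the mock libraries and 161, 149 and 154 CPM in the p140Cap libraries (log2 fold change -0.01, SE 0.05, edgeR adjusted p = 0.909). Mock and p140Cap libraries were interleaved, and the interval of 2 SE was -0.10 to 0.09, so a change of the size seen in Nuf2 lies outside it. Cenpf, a kinetochore and nuclear matrix protein of late interphase, was at 301, 291 and 279.6 CPM in the mock libraries and 285, 252 and 268 CPM in the p140Cap libraries (log2 fold change -0.11, SE 0.05, edgeR adjusted p = 0.0623), with overlapping groups, and passed under 5 of 15 alternative settings. Cenpe, the kinesin of the outer kinetochore, was at 195, 199.6 and 188 CPM in the mock libraries and 184, 165 and 174 CPM in the p140Cap libraries (log2 fold change -0.16, SE 0.05, edgeR adjusted p = 0.0103), a small decrease that passed the test under all 15 settings.

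All 8 kinesin motors fell, a call made for 35.9% of all genes tested. Kif11, the motor that pushes the spindle poles apart, was at 284, 295 and 269 CPM in the mock libraries and 171, 155 and 168 CPM in the p140Cap libraries (log2 fold change -0.78, SE 0.05, edgeR adjusted p = 1.38e-09), which is 58.2% of the mock level. Kif20b, a motor of cytokinesis, averaged 145 ± 8.12 CPM in mock and 90.9 ± 4.61 CPM in p140Cap libraries (SD, n = 3, log2 fold change -0.68). Both lie on chromosome 19, and the median of the other 6 kinesins was -0.35 in place of -0.46. Of these, Kif4, a chromosome-arm motor on chromosome X, had a log2 fold change of -0.55, Kif15, which helps Kif11, had -0.51, and Kif23, of the central spindle, had -0.41. Kif22, Kif2c (MCAK, which takes microtubules apart) and Kif20a (a midzone motor) fell least, with -0.29, -0.24 and -0.22. Kif20a was steady within groups, with 197, 198 and 198 CPM in the mock libraries and 170.3, 169.9 and 168 CPM in the p140Cap libraries (log2 fold change -0.22, SE 0.04, edgeR adjusted p = 0.000246). The log2 ratio of Kif20a to Kif20b, from 0.45 ± 0.08 to 0.90 ± 0.08 (mean ± SD, n = 3 libraries each), moved more than any other of the 8 pair ratios computed. With 3 libraries a side, 0.1 is the smallest two-sided p that exact permutation can reach, and 6 of the 8 pairs gave it, 0.133 after Benjamini-Hochberg adjustment over the 8, so no ratio passed a threshold of 0.05. The 2 pairs with overlapping groups, Aurka to Aurkb and Cdc25b to Cdc25c, gave an exact p of 0.4 and 0.5.

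**Figure D5:**
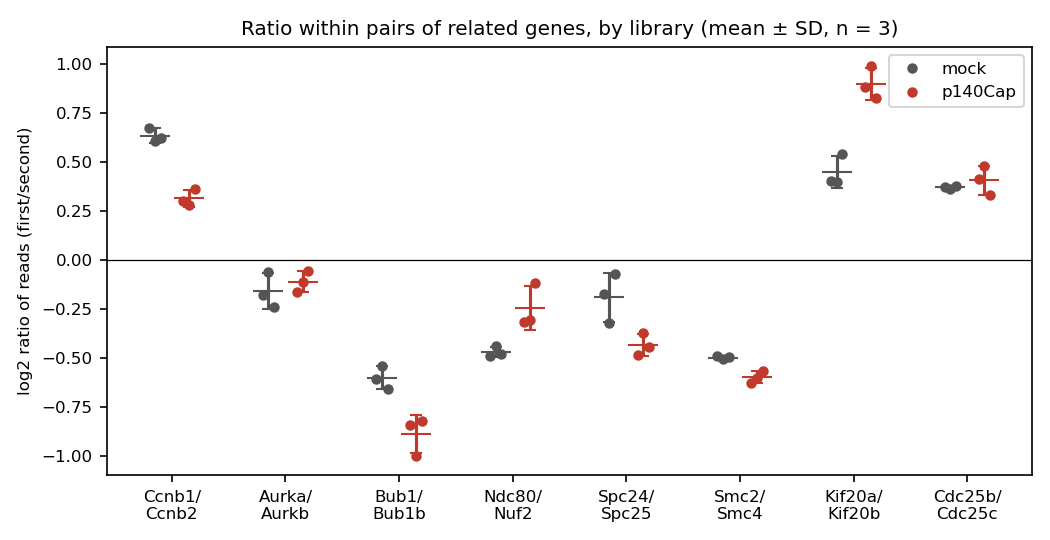
Log2 ratio of the reads of 2 related genes (y axis, first over second) in each mock and p140Cap library (points), with the mean and SD of 3 libraries, for 8 pairs. Ccnb1 to Ccnb2, Bub1 to Bub1b, Spc24 to Spc25 and Smc2 to Smc4 are lower in p140Cap libraries, Ndc80 to Nuf2 and Kif20a to Kif20b are higher, and Aurka to Aurkb and Cdc25b to Cdc25c overlap.

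Genes of spindle assembly, cytokinesis and chromosome structure fell in 11 of 11 cases, set against 35.9% of all genes tested. Ect2, which switches on RhoA in the cleavage furrow, was at 180.1, 194 and 168 CPM in the mock libraries and 135, 123 and 128 CPM in the p140Cap libraries (log2 fold change -0.49, SE 0.06, edgeR adjusted p = 8.95e-07). Anln (anillin, of the contractile ring) had a log2 fold change of -0.43, and Tpx2, which activates Aurora A on the spindle, had -0.33. Prc1, which bundles midzone microtubules, was at 231, 228 and 226 CPM in the mock libraries and 202, 185 and 192 CPM in the p140Cap libraries (log2 fold change -0.24, SE 0.05, edgeR adjusted p = 0.000235). For each of these genes the p140Cap libraries were all below the mock libraries, as they were for 37.2% of all genes tested. Of the condensin I complex, which compacts chromosomes, Ncapg was lowest with 126, 133 and 121 CPM in the mock libraries and 91.9, 77.4 and 92.2 CPM in the p140Cap libraries (log2 fold change -0.54, SE 0.06, edgeR adjusted p = 9.77e-07), followed by Smc2 at -0.51, Smc4 at -0.41, Ncapd2 at -0.28 and Ncaph, with 112, 113 and 105 CPM in the mock libraries and 93.5, 95.6 and 98.0 CPM in the p140Cap libraries (log2 fold change -0.20, SE 0.05, edgeR adjusted p = 0.0018). The log2 ratio of the core subunits Smc2 to Smc4 went from -0.50 ± 0.01 to -0.60 ± 0.03 (mean ± SD, n = 3 libraries each), a move of -0.10. Top2a, topoisomerase II alpha, averaged 875 ± 19.8 CPM in mock and 679 ± 25.5 CPM in p140Cap libraries (SD, n = 3, log2 fold change -0.36). Mki67, the gene of the Ki-67 antigen that pathologists stain to count dividing cells, was at 1305, 1205 and 1163 CPM in the mock libraries and 1075, 1037 and 1024 CPM in the p140Cap libraries (log2 fold change -0.23, SE 0.05, edgeR adjusted p = 0.000804). With 85.4% of the mock level, it changed less than the median of the 54 genes.

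The 4 genes of the APC/C and of sister separation all fell (35.9% of all genes tested did), with log2 fold changes between -0.24 and -0.19. Cdc20, the mitotic activator of the APC/C, was at 68.7, 69.9 and 73.8 CPM in the mock libraries and 62.4, 57.6 and 59.7 CPM in the p140Cap libraries (log2 fold change -0.24, SE 0.05, edgeR adjusted p = 0.000682). Ube2c, the ubiquitin-conjugating enzyme that works with it, was at 120.5, 123 and 126 CPM in the mock libraries and 103, 105 and 105 CPM in the p140Cap libraries (log2 fold change -0.24, SE 0.05, edgeR adjusted p = 0.000178). Pttg1, which encodes securin, had a log2 fold change of -0.23 (edgeR adjusted p = 0.00126), and did not pass once the libraries were thinned to the smallest total (-0.14, edgeR adjusted p = 0.0608). Espl1, which encodes separase, was at 69.2, 66.7 and 67.2 CPM in the mock libraries and 60.2, 60.8 and 57.6 CPM in the p140Cap libraries (log2 fold change -0.19, SE 0.05, edgeR adjusted p = 0.00316). All of their p140Cap libraries were below their mock libraries (37.2% of all genes tested), and the group's median corresponds to 85.1% of the mock level. None of the 4 reached a decrease of 0.5 log2 units.

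Both transcription factors of the list fell by more than most of the 54 genes. Mybl2 (B-MYB) was at 60.0, 58.9 and 62.0 CPM in the mock libraries and 32.0, 34.5 and 28.4 CPM in the p140Cap libraries (log2 fold change -0.93, SE 0.06, edgeR adjusted p = 1.71e-09), the lowest log2 fold change of the 54 and 52.6% of the mock level. Foxm1 was at 137, 132 and 129 CPM in the mock libraries and 89.3, 94.3 and 95.4 CPM in the p140Cap libraries (log2 fold change -0.51, SE 0.05, edgeR adjusted p = 8.2e-08). Among the 44 genes with a promoter, the 31 with a CHR had a median log2 fold change of -0.33 and the 13 without had -0.58. For the CCAAT box the medians were -0.32 in 32 genes with it and -0.49 in 12 without. For the E2F site they went the other way, with -0.45 in 4 genes with it and -0.36 in 40 without. These medians are a description. Values ran from -0.78 to -0.01 with a CHR and from -0.93 to -0.08 without, so the sets overlapped.

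Of 123 other genes of mitosis and its control, listed by role, 91 were lower and 8 higher (edgeR, adjusted p below 0.05), and 37 were lower by at least 0.5 log2 units. Over all genes tested, the shares against which these and the following counts by list stand were 35.9% lower, 35.2% higher and 15.5% lower by at least 0.5 log2 units. The median log2 fold change of the 123 genes was -0.30. The number called higher was 5 without mock replicate 1 and 5 without p140Cap replicate 3. In the inner and outer kinetochore, 26 of 30 were lower and 0 higher, with a median of -0.47 and the largest change in Zw10, a checkpoint protein of the outer kinetochore (-0.78). All 4 subunits of the MIS12 complex, which joins centromere and NDC80 complex, fell, with log2 fold changes of -0.64 for Mis12, -0.67 for Nsl1, -0.43 for Dsn1 and -0.42 for Pmf1. Hjurp, the chaperone that loads CENP-A, was at 417, 397 and 399 CPM in the mock libraries and 433, 434 and 412 CPM in the p140Cap libraries (log2 fold change 0.08, SE 0.05, edgeR adjusted p = 0.154), with overlapping groups as for Cenpa itself. Hjurp and the MIS12 subunits were chosen after their values were seen.

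Of 20 genes of the APC/C core, its coactivators and its inhibitors, 12 were lower and 3 higher, with a median of -0.22. Anapc2, the cullin of the complex, was higher (0.28), as were Anapc5 (0.20) and Fzr1, the CDH1 activator of late mitosis (0.16). Fzr1 had overlapping groups and did not pass under 9 of 15 alternative settings. The largest change in the list was that of Trip13, which takes MAD2 off the checkpoint complex, at 36.2, 39.9 and 37.8 CPM in the mock libraries and 16.3, 14.5 and 14.5 CPM in the p140Cap libraries (log2 fold change -1.33, SE 0.07, edgeR adjusted p = 9.86e-11). Mad1l1, the MAD2 anchor, had a log2 fold change of -0.98, Fbxo5 (EMI1), an APC/C inhibitor, had -0.85, and Mad2l1bp, the MAD2 partner of TRIP13, had -0.07 and did not pass (edgeR adjusted p = 0.481). These 3, and the genes that rose, were named after their values were seen. Among other mitotic kinases, phosphatases and cyclins, 11 of 14 were lower and 0 higher, with the largest change in Aunip, an Aurora A partner with few reads (-1.38). Of 8 other kinesins, 6 were lower, with Kif18a at -0.47, and Kif3a, a motor of cilia, was higher (0.31).

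Among 25 genes of spindle, centrosome and cytokinesis, 17 were lower, led by Cep55 (-0.86), an abscission protein whose gene lies on chromosome 19, and Numa1, of the spindle poles, was higher (0.17). Of 13 cohesin and condensin II genes, 8 were lower (35.9% of all genes tested), led by Cdca5 (sororin, -0.97), also on chromosome 19, while Stag2 (0.14) and Ncaph2 (0.15) were higher (35.2% of all genes tested). Stag2 had overlapping groups and did not pass under 7 of 15 alternative settings, and Ncaph2 did not pass without mock replicate 1 or 2 or p140Cap replicate 3. In the list of DREAM, MuvB and E2F genes, which repress or activate cell cycle promoters, 11 of 13 were lower and 1 was higher. E2f7, a repressor that is itself an E2F target, had the largest change (log2 fold change -1.38, SE 0.08, edgeR adjusted p = 4.24e-10). Rbl2, which encodes p130, the pocket protein of the DREAM repressor in resting cells, was the gene that rose, with 50.2, 48.9 and 46.0 CPM in the mock libraries and 83.0, 82.6 and 75.7 CPM in the p140Cap libraries (log2 fold change 0.73, SE 0.05, edgeR adjusted p = 4.86e-09). Its log2 fold change was opposite to that of Lin54 (-0.98), the MuvB subunit that binds the CHR, and E2f4 (-0.65), the E2F of the same complex, both also named after their values were seen.

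Replication licensing genes, which load and start the replication helicase earlier in the cell cycle, were set beside the mitotic genes as another set used by dividing cells. Of 16 such genes 14 were lower, all 14 by at least 0.5 log2 units, against 35.9% and 15.5% of all genes tested, and their median log2 fold change was -0.99, or 50.4% of the mock level, against -0.38 for the mitotic genes. Relative to the mock mean, their median was -0.998, -1.03 and -0.97 in the p140Cap libraries, while that of the 54 mitotic genes was -0.34, -0.43 and -0.37. The licensing median was the lower in each p140Cap library. Mybl2, the lowest of the mitotic genes at -0.93, stood close to that median. The difference between the lists was not tested, and both rest on the same libraries.

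Counting limits touch some of these genes. For 32 of the 54, an exon of another gene overlaps on the opposite strand in the GENCODE annotation of GRCm39, and, while the library kit was a stranded one, the sources used here do not give whether counting used the strand. Pseudogenes named after the gene exist for Ccnb1, Ccnb2, Kif4 and Kif22, so that reads of these genes could be split with such a copy. How alike the sequences are was not measured, and pseudogenes under other names were not searched. Exons of Foxm1, Ncapd2, Top2a and Kif20b overlap those of another annotated gene on the same strand, which a strand setting would not separate. The values of all these genes are uncertain to that extent.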

How the data were processed

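RNA of 3 mock and 3 p140Cap TuBo libraries was poly(A)-selected and sequenced. The deposited values are read counts per gene, which the authors made with STAR 2.5 and RSEM 0.1.1 (submitters' processing notes). Those notes name mm10 (GRCm38) as the build, while the study's data statement lists GRCm39 for mouse, so the build behind the counts is uncertain. Genes were matched by name and identifier, and no position was taken from the counts. The sources used here do not name the annotation release. Totals of 13770385 to 75506562 reads limit precision by counting error only. The 54 genes were matched by symbol. Groups follow the labels. Genes with low counts were removed with edgeR's filterByExpr, leaving 11800 of 21960, and p140Cap was compared with mock by edgeR 4.0.16 (TMM, quasi-likelihood test, Benjamini-Hochberg) in R 4.3.3. Results at an adjusted p below 0.05 are called, and sizes are on the log2 scale. Role groups are described by counts and medians. Log2 ratios within 8 gene pairs were compared by a two-sided exact permutation test. No 2 libraries agreed within sampling noise. The fit was tested on simulated data. It recovered 89.4% of 104 genes changed by 0.5 log2 units and 96.8% of 95 changed by 1, with 5.13% false calls. Alternatives were RLE, upper-quartile and total scaling, other filters, DESeq2 1.42.0, limma-voom (limma 3.58.1), a replicate block, thinning, leaving out each library, and leaving out members on chromosome 19. Promoter letters were searched in RefSeq promoters of GRCm38.p6. Named genes are the members, the gene with the largest called change in each pathway list, and those stated to be chosen after their values were seen. The members and lists were chosen with earlier results of these data known.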

Additional observations from a re-analysis of the deposited data

How the results depend on the processing

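Of 302 values of the main results under alternatives, 290 stayed within the set limits, 12 moved and 0 reversed. These limits were wide, and some values could not move. A pair ratio stayed if its sign did, and with a replicate block it equals the main value by construction. Groups without a gene on chromosome 19 could not change when those genes were left out. Counts had a wide limit, so 13 in place of 18 genes lower by at least 0.5 log2 units stayed. The number of the 54 genes that were lower ran from 46 (without the 3 on chromosome 19) to 52, with 0 higher throughout, and their median from -0.42 to -0.36. With library totals only, which shifted the median of all genes to -0.04, the medians were -0.42 for cyclins and CDK control, -0.37 for kinases and passenger complex, -0.42 for spindle assembly and -0.27 for APC/C genes. Without a filter on low counts they were -0.41 for cyclins and -0.37 for kinases, and with thinned libraries -0.37 for kinases and -0.20 for APC/C genes. The kinase median ran from -0.36 to -0.32 when single libraries were left out, and that of kinesins was -0.35 without the genes on chromosome 19. Pathway genes called higher numbered 5 to 8 when single libraries were left out, with 5 without mock replicate 1 and 5 without p140Cap replicate 3. Cenpa, which was not called, ran from -0.037 to 0.018 when single libraries were left out, positive without mock replicate 2 (0.01) and without p140Cap replicate 2 (0.018). The cause of these moves was not tested. The groups share replicate numbers, but same-numbered libraries did not deviate together (correlations -0.03, -0.11 and -0.06). With a replicate block, 49 of the 54 genes were lower, the median was -0.38, and 89 pathway genes were lower and 6 higher. Depth limits Cenpm most, with 142 reads in its lowest library.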
